A study of Mus musculus with 8 samples.

Results

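Egr1, Egr2 and Egr3 encode early growth response (EGR) transcription factors, and Nab1 and Nab2 encode the corepressors that bind them. These 5 genes were taken by name from a table of 25477 loci, and each name matched 1 locus. All 5 were among the 11417 loci that averaged 1 FPKM or more over the libraries and were tested. FPKM counts fragments per transcript length and per sequenced total. The genes were picked with their difference between shCrebbp and scramble cells already known. That difference is therefore given as a description without a test.

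The RNA came from mouse lymphoma cells of the spleen, sorted as B220+ GFP+ lymphocytes, where B220 is a B cell surface marker and GFP a fluorescent reporter protein. In 4 libraries the cells carried a short hairpin RNA against Crebbp (shCrebbp), which encodes a histone acetyltransferase and coactivator, and in the other 4 a scramble shRNA. Names of shCrebbp 3 and 4 begin with AO229, names of shCrebbp 1 and 2 with AO228, and names of scramble 1 to 4 with AO227. What a prefix stands for is not given, and prefix and shRNA cannot be told apart between groups. Strain, age, hairpin sequence and the genotype of the lymphoma are not given in the sources used here. It is also not stated whether libraries came from separate mice, so a p-value reflects only how these libraries vary, which may be technical.

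EGR factors are zinc finger proteins made within minutes of a stimulus. In B cells the antigen receptor switches on their genes through the ERK kinase cascade, which acts on serum response factor (SRF) and its ternary complex partners at the promoter. EGR1, EGR2 and EGR3 bind a GC-rich DNA motif and carry a domain that NAB1 and NAB2 recognise. The NAB proteins then repress transcription, NAB2 in part through CHD4, a subunit of the NuRD complex. Since EGR factors themselves switch on Nab2, the pair can form a feedback loop. In lymphocytes EGR2 and EGR3 are known for restraining activation.

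Absolute depth is unknown. The share of loci at 0 ranged from 33.2 to 51.8%, highest in scramble 2 and lowest in shCrebbp 3. Relative depth read from low values was 69.3% of that of shCrebbp 4 in scramble 2 and 227% in shCrebbp 2, and it was not resolved for shCrebbp 3. B cell markers were high in all libraries, with Cd79b, a gene of the antigen receptor complex, at 872 to 1146 FPKM in shCrebbp and 716 to 859 FPKM in scramble libraries. The targeted gene Crebbp measured 22.0 ± 3.66 FPKM in shCrebbp and 25.9 ± 5.54 FPKM in scramble libraries (SD, n = 4 each). Its log2 difference was -0.22 (95% confidence interval from -0.62 to 0.19). The knockdown was not detectable in the Crebbp transcript, and libraries are grouped as labelled. Ep300, the gene of the related acetyltransferase p300, had a log2 difference of 0.16.

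For Egr1 and Egr2, each shCrebbp library lay below all scramble libraries. Egr3 was below the scramble libraries in both AO228 libraries and within their range in both AO229 libraries. Nab1 and Nab2 were not lower, and their means lay above those of scramble libraries. Values of shCrebbp and scramble libraries did not overlap for 2 of the 5 genes, both lower. Over the 11417 loci, 199 (1.74%) were lower in shCrebbp without overlap and 180 (1.58%) were higher without overlap. Because the genes were chosen on this contrast, nothing is read from that count. With limma, a linear model fitted to log2(FPKM + 1) over all loci, 0 of 11417 loci (0%) passed an adjusted p of 0.05 in this comparison. An unadjusted p under 0.05 was reached by 573 loci (5.02%). The count that passed was 2 without scramble 1 and 1 without shCrebbp 1. RNA of sorted cells was measured in bulk, so fewer cells with a transcript and less transcript per cell cannot be told apart.

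Sequence before annotated start sites was taken from RefSeq (GRCm38.p6, the assembly behind mm10) for Egr2, Nab1 and Nab2. The RefSeq table used here holds 5 starts for Egr2 and 1 each for Nab1 and Nab2, and for Egr2 the start nearest to that of the principal GENCODE transcript was used. The 250 bases before that start are shown 5′ to 3′ on the gene's strand. They are shown because the log2 difference was negative for Egr2 and positive for Nab1 and Nab2. For both NAB genes the shCrebbp and scramble libraries overlapped, so a rise was not established. Capitals mark matches, on either strand, to the CArG box bound by SRF, to GCGNGGGCG, the motif bound by EGR factors, and to TGACG, the core of the cyclic AMP response element. The full element TGACGTCA, which contains TGACG, was searched too. The Egr2 window is chr10:67537619-67537868 (plus strand), the Nab1 window chr1:52500449-52500698 (minus strand) and the Nab2 window chr10:127666704-127666953 (minus strand). The start used lies 2394 bases after the outermost GENCODE start of Egr2, 1865 bases after that of Nab2 and 231 bases after that of Nab1, so each window lies at least partly inside the GENCODE gene and other promoters are not shown.
Egr2: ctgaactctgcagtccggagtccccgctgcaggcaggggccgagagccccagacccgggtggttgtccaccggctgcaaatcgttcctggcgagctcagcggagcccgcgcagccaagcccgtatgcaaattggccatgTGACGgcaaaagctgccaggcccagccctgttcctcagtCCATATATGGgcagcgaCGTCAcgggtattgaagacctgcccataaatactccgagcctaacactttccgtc
Nab1: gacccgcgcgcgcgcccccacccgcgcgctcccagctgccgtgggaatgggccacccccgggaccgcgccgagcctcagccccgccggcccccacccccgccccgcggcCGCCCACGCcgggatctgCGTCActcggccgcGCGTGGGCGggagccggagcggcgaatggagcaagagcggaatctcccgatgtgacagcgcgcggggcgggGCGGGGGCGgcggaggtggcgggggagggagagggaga
Nab2: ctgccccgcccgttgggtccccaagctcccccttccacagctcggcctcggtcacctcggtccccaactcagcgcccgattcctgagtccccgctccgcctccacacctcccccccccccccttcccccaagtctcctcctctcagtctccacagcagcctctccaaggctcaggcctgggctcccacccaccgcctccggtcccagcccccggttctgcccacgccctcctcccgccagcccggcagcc

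The Egr2 window held 1 CArG box, 63 to 72 bases before the start, which reads the same on both strands, and 2 matches to TGACG. It held no GCGNGGGCG. Over the 5 Egr2 starts, whose windows partly overlap, 4 windows held a CArG box, 3 held TGACG and 0 held GCGNGGGCG, and the outermost held none of them. The Nab1 window held 3 matches to GCGNGGGCG and 1 to TGACG, and no CArG box. In this Nab2 window none of these motifs was found, and sequence before the outermost Nab2 start was not searched. Of 32851 promoter windows of this length, 1.47% held a CArG box, 4.70% GCGNGGGCG, 17.8% TGACG and 1.55% TGACGTCA. A match describes the letters and does not show binding, and the lack of one describes this window alone.

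Egr1, the most abundant of the EGR genes, lies on chromosome 18. It measured 106 and 113 FPKM in the AO229 libraries and 133 and 169 FPKM in the AO228 libraries, against 314, 201, 229.0 and 187 FPKM in scramble libraries 1 to 4. The highest shCrebbp library, shCrebbp 2, remained below the lowest scramble library, scramble 4. Scramble 1 stood above the other scramble libraries. The mean was 130.1 ± 27.9 FPKM in shCrebbp and 233 ± 56.8 FPKM in scramble libraries (SD, n = 4 each), a ratio of means of 0.560. On the log2(FPKM + 1) scale Egr1 differed by -0.83 (standard error 0.21), and by -0.67 without scramble 1.

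Egr2, which is also essential for myelination in Schwann cells, lies on chromosome 10 at 67537061 to 67542314 (mm10, plus strand). AO229 libraries held 41.5 and 53.5 FPKM and AO228 libraries 58.4 and 40.6 FPKM, against 99.2, 100.3, 111 and 79.6 FPKM in scramble libraries 1 to 4. Both prefixes covered nearly the same range, and a clear gap separated them from the scramble libraries. The mean was 48.5 ± 8.83 FPKM in shCrebbp and 97.4 ± 12.98 FPKM in scramble libraries (SD, n = 4 each), a ratio of 0.498. On the log2 scale Egr2 differed by -0.998 (standard error 0.17), with -1.02 for AO229 and -0.98 for AO228 against the same scramble libraries.

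Egr3, which overlaps with Egr2 in function in lymphocytes, lies on chromosome 14. Its locus in the table runs from 70075322 to 70092297 (16976 bases), while the gene in the GENCODE annotation of the same build has 5412 bases, so part of the interval lies outside it. It measured 21.0 and 27.3 FPKM in the AO229 libraries and 5.71 and 11.7 FPKM in the AO228 libraries, against 19.4, 22.1, 29.3 and 25.4 FPKM in scramble libraries 1 to 4. Both AO228 libraries lay below all scramble libraries, and both AO229 libraries lay within the scramble range. Pooled, the mean was 16.4 ± 9.60 FPKM in shCrebbp and 24.1 ± 4.28 FPKM in scramble libraries (SD, n = 4 each). The pooled log2 difference of -0.71 (standard error 0.40) joins 0.01 for AO229 and -1.43 for AO228 against the same scramble libraries. Without shCrebbp 1 it was -0.32.

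**Figure D1:**
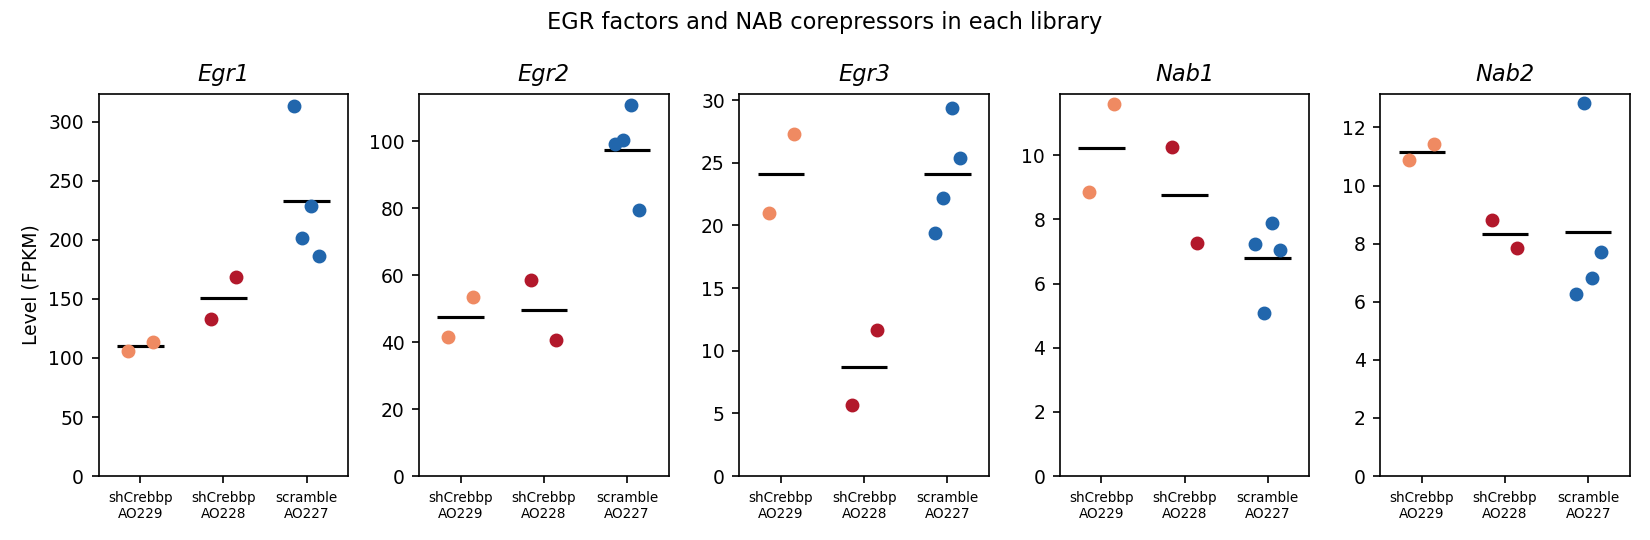
Level of each gene in FPKM (vertical axis from 0, its own scale per panel) in the 8 libraries, by shRNA and name prefix. Points are libraries and horizontal lines are means. For Egr1 and Egr2 no shCrebbp point reaches the scramble points, while Egr3 is low in AO228 alone, at 5.71 and 11.7 FPKM.

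The corepressor genes had much lower levels. Nab1, on chromosome 1 at 52455849 to 52500448 (minus strand), measured 8.86 and 11.6 FPKM in the AO229 libraries and 10.3 and 7.26 FPKM in the AO228 libraries, against 7.23, 5.08, 7.90 and 7.04 FPKM in scramble libraries 1 to 4. The groups overlapped, since shCrebbp 2 lay below scramble 3. The mean was 9.498 ± 1.86 FPKM in shCrebbp and 6.81 ± 1.21 FPKM in scramble libraries (SD, n = 4 each), with 0.42 as log2 difference (standard error 0.19).

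Nab2 measured 10.9 and 11.4 FPKM in the AO229 libraries and 8.81 and 7.84 FPKM in the AO228 libraries, against 6.26, 12.8, 6.83 and 7.71 FPKM in scramble libraries 1 to 4. Scramble 2, the library of lowest relative depth, held the highest value of all, and the other scramble libraries lay below every shCrebbp library. The mean was 9.74 ± 1.70 FPKM in shCrebbp and 8.41 ± 3.01 FPKM in scramble libraries (SD, n = 4 each). The log2 difference was 0.23 (standard error 0.23), against 0.43 without scramble 2 and 0.12 without scramble 1. The table gives Nab2 and its neighbour Stat6 the same interval on chromosome 10, from 127642986 to 127666703, under separate identifiers. In GENCODE, Nab2 overlaps 3 genes of the opposite strand, by 40 bases with Stat6, 1646 bases with the antisense gene Gm16229 and 1668 bases with Nemp1. Whether the counting used strand is not stated, so reads of Nab2 and of these genes may not be told apart there, and the Nab2 values are uncertain to that extent. Stat6, which encodes a transcription factor of interleukin signalling, measured 40.3 ± 10.4 FPKM in shCrebbp and 33.4 ± 6.26 FPKM in scramble libraries (SD, n = 4 each), with a log2 difference of 0.25.

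**Figure D2:**
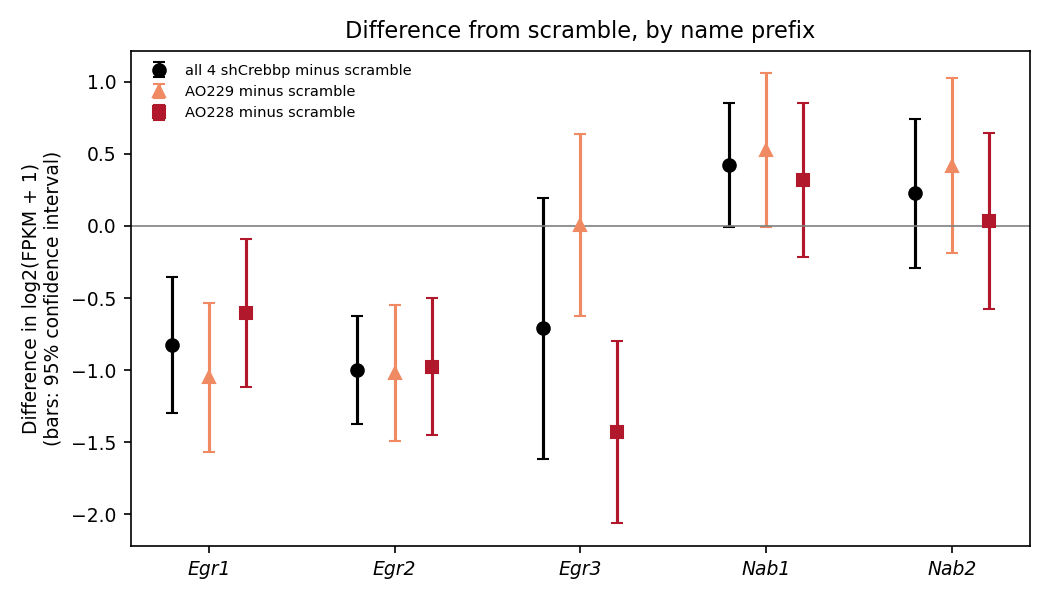
Difference from the 4 scramble libraries in log2(FPKM + 1) for each gene, for all 4 shCrebbp libraries and for each prefix alone, with 95% confidence intervals. The 3 differences of a gene share the scramble libraries. The genes were chosen on this contrast, so the intervals are a description and not a test. Egr1 and Egr2 lie below 0 for both prefixes, and Egr3 at 0.01 for AO229 and -1.43 for AO228. Nab1 and Nab2 lie above 0, with intervals that all include 0.

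FPKM is scaled to transcript length, so levels of the genes can be set side by side within a library. In all 8 libraries Egr1 exceeded Egr2, by a ratio of 2.01 to 4.15, and Egr2 exceeded Egr3, by a ratio of 1.96 to 10.2. By mean FPKM over the 8 libraries, Egr1 lay above 97.1% of the loci tested, Egr2 above 93.6% and Egr3 above 73.9%. Nab2 and Nab1 lay above 49.5 and 46.2%. The ratio of Nab1 to Nab2 ranged from 0.814 to 1.17 in shCrebbp and from 0.396 to 1.16 in scramble libraries, so their order was not resolved beyond the spread. In the AO228 library shCrebbp 1, Egr3 at 5.71 FPKM stood below both corepressor genes.

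The summed level of the EGR genes was 169 and 194 FPKM in the AO229 libraries and 197 and 221 FPKM in the AO228 libraries, against 432, 324, 369 and 291 FPKM in scramble libraries 1 to 4. The summed level of the NAB genes was 19.2 ± 3.26 FPKM in shCrebbp and 15.2 ± 1.89 FPKM in scramble libraries (SD, n = 4 each). The ratio of the sums was 8.54 and 8.42 in AO229 and 10.3 and 14.6 in AO228 libraries, against 32.02, 18.1, 25.1 and 19.8 in scramble libraries 1 to 4. By these FPKM, each shCrebbp library thus had a lower ratio of EGR to NAB than any scramble library. The limits given above for the Nab2 values and the Egr3 interval apply to this ratio too. On the log2 scale the mean ratio was 3.35 ± 0.37 in shCrebbp and 4.53 ± 0.37 in scramble libraries (SD, n = 4 each). These values restate the contrast on which the genes were chosen. Egr1 made up 66.3 ± 7.67% of the EGR sum in shCrebbp and 65.2 ± 4.98% in scramble libraries. The share of Egr3 was 12.4 and 14.1% in AO229 libraries and 2.90 and 5.28% in AO228 libraries, against 4.49 to 8.70% in scramble libraries.

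**Figure D3:**
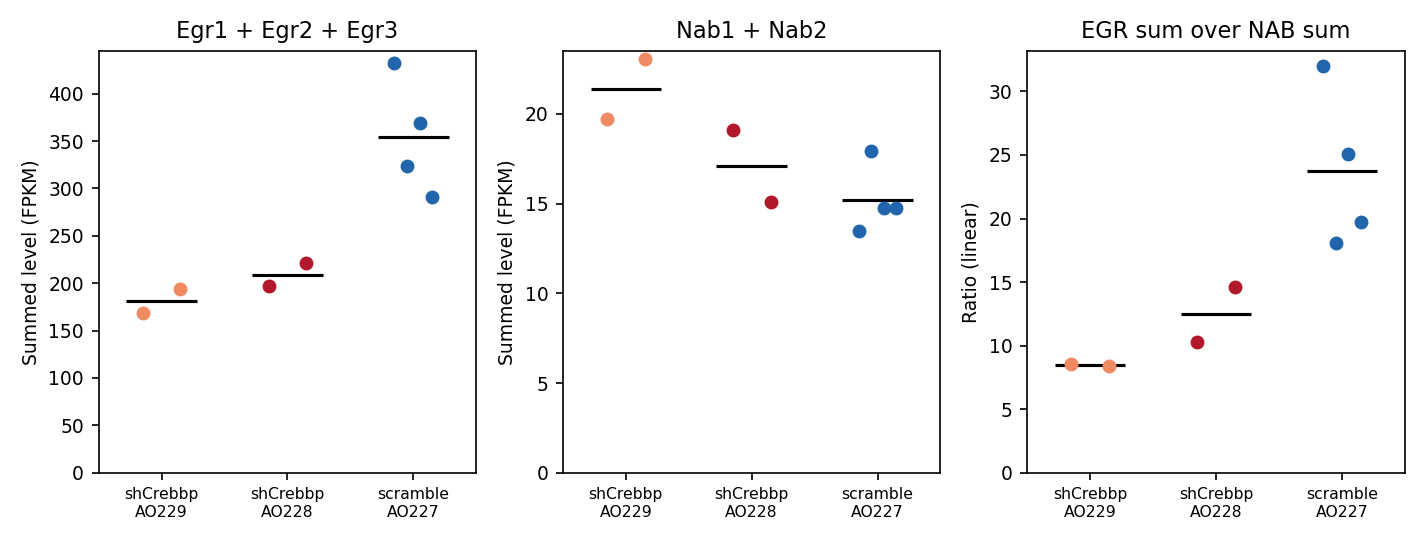
Summed FPKM of Egr1, Egr2 and Egr3, summed FPKM of Nab1 and Nab2, and their ratio (linear scale), in each library by shRNA and prefix. Points are libraries and lines are means. The ratio lies between 8.42 and 14.6 in shCrebbp and between 18.1 and 32.02 in scramble libraries.

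EGR genes are also active in myeloid cells. Of 6 tested macrophage and monocyte markers, 5 had a negative log2 difference, as did 48.0% of all loci tested. The Cd68 locus, 1 of these 5, merges 3 genes. Summed over the other 9 listed markers, the level was 15.4 to 26.2 FPKM in shCrebbp and 31.6 to 46.8 FPKM in scramble libraries, without overlap. Of these 9, Ly6c2, a monocyte surface antigen gene, had the highest mean over the 8 libraries and so weighs most in the sum. It held 4.16 to 8.59 FPKM in shCrebbp and 12.4 to 26.3 FPKM in scramble libraries. Ly6c2 was the only 1 of the 6 tested markers that was lower without overlap, as were 1.74% of all loci tested. Emr1, the gene of the macrophage antigen F4/80, averaged 2.16 ± 1.54 FPKM in shCrebbp and 5.92 ± 1.52 FPKM in scramble libraries, Mpeg1 4.92 ± 2.44 FPKM in shCrebbp and 7.65 ± 1.78 FPKM in scramble libraries, and Hmox1 1.96 ± 0.946 FPKM in shCrebbp and 6.44 ± 3.21 FPKM in scramble libraries (SD, n = 4 each). Lyz2 averaged 2.71 ± 2.92 FPKM in shCrebbp and 1.52 ± 1.75 FPKM in scramble libraries. The remaining markers Fcgr1, Cd14, Itgam and Csf1r stayed below the filter, with at most 1.20 FPKM in any library. Csf1r averaged 0.408 FPKM in shCrebbp and 0.372 FPKM in scramble libraries. For Itgam the means were 0.519 FPKM in shCrebbp and 0.622 FPKM in scramble libraries. Fcgr1 was listed at 0 in all libraries except shCrebbp 2. Whether myeloid cells were present among the sorted cells, and their part in the lower Egr1 and Egr2 levels, was not tested.

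Of 27 other immediate early genes, 26 were tested and 0 passed limma over all loci in shCrebbp against scramble. Their median log2 difference was -0.28, against 0.01 over all loci tested, with 23 below 0. Below 0 lay 48.0% of all loci tested. Ier3, a stress-inducible survival gene, held 0.496 ± 0.464 FPKM in shCrebbp and 2.07 ± 0.560 FPKM in scramble libraries. Maff, a small MAF transcription factor gene, held 22.2 ± 6.78 FPKM in shCrebbp and 39.9 ± 3.74 FPKM in scramble libraries. These 2 of the 26 genes were lower in shCrebbp without overlap, as were 1.74% of all loci tested. Ier3 averaged 1.28 FPKM over the 8 libraries and passed the filter only through its scramble values. Klf10, which encodes a repressor induced by TGF-beta, measured 17.2 ± 7.995 FPKM in shCrebbp and 26.3 ± 5.97 FPKM in scramble libraries (SD, n = 4 each).

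Lists of genes upstream of EGR transcription had medians near that of all loci. For SRF, its ternary complex partners and the MRTF coactivators, 0 of 6 tested genes passed, 3 had a negative difference, and the median log2 difference was -0.01. Srf itself measured 15.02 ± 3.785 FPKM in shCrebbp and 16.35 ± 2.15 FPKM in scramble libraries. The log2 difference was 0.39 for Mkl1 and 0.24 for Mkl2, both MRTF genes. Of 12 ERK cascade kinases 0 passed, 5 had a negative difference, and the median was 0.01. Mapk3, the gene of the kinase ERK1, measured 6.05 ± 0.638 FPKM in shCrebbp libraries, and in scramble libraries it measured 4.79, 0, 6.05 and 4.27 FPKM. It was listed at 0 in scramble 2. Rps6ka1 and Rps6ka4, genes of kinases downstream of ERK, differed by -0.25 and 0.36 on the log2 scale.

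Genes of the NuRD complex gave 0 of 13 passing, 7 negative differences and a median of -0.05. Chd4, whose product binds NAB2, measured 51.0 ± 10.5 FPKM in shCrebbp and 59.3 ± 7.84 FPKM in scramble libraries. The log2 difference was 0.51 for Hdac1, -0.50 for Chd3 and 0.41 for Gatad2b, further NuRD subunit genes. Among 18 reported EGR target genes 14 were tested, 0 passed, 7 had a negative difference, and the median was -0.03. Id3, an inhibitor of E proteins that EGR1 switches on in lymphocytes, held 40.0 and 35.8 FPKM in AO229 and 31.2 and 40.1 FPKM in AO228 libraries, against 46.6, 84.6, 47.6 and 66.2 FPKM in scramble libraries. Its groups did not overlap, and its log2 difference was -0.68. Id3 was the only 1 of the 14 tested targets lower without overlap, as were 1.74% of all loci tested. The cytokine gene Tnf differed by -0.65 and the adhesion receptor gene Icam1 by -0.49. The targets Cblb and Dgkz, which restrain antigen receptor signalling, differed by 0.13 and 0.11. Egr4, the remaining EGR family gene, lay below the filter at 0.0983 to 0.528 FPKM in shCrebbp and 0.568 to 1.42 FPKM in scramble libraries, and the related Wt1 was listed at 0 in all 8.

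**Figure D4:**
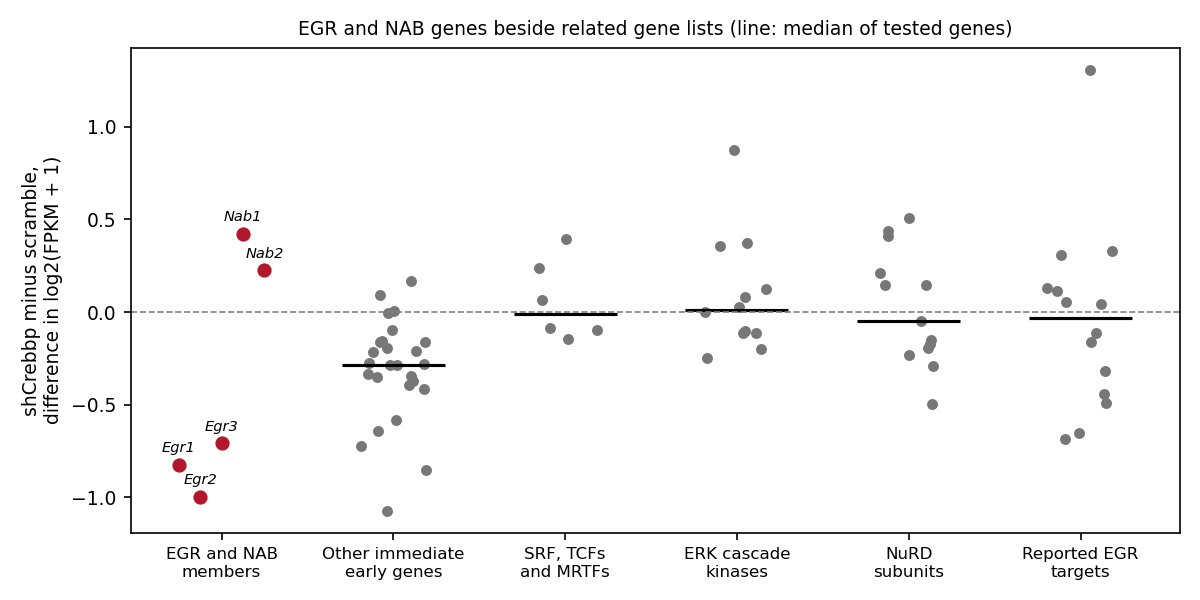
Difference between shCrebbp and scramble libraries in log2(FPKM + 1) for the EGR and NAB genes (red, named) and for the tested genes of 5 related lists (grey, 1 point per gene). Black lines are medians, at -0.28 for the other immediate early genes and between -0.05 and 0.01 for the other lists.

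The difference between the prefixes within shCrebbp is a separate contrast from the one on which the genes were chosen. The gene lists and tests were still chosen with earlier results of these data known, so its p-values are not free of selection. In one limma fit over all 8 libraries, 146 of 11417 loci (1.28%) differed between AO229 and AO228 at an adjusted p under 0.05. Of these, 76 (0.666%) were higher and 70 (0.613%) lower in AO229. The count rests on single libraries. It was 3 without scramble 1, 522 without scramble 2, 3 without scramble 3, 8 without shCrebbp 1, 15 without shCrebbp 2, 11 without shCrebbp 3 and 71 without shCrebbp 4. Values without overlap, which 2 against 2 libraries give readily, were found for 2914 loci (25.5%) higher and 2895 (25.4%) lower in AO229.

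None of the 5 genes passed this test in limma (0 of 5), and 1, Egr3, had an unadjusted p under 0.05, as did 1871 loci (16.4%). Egr3 averaged 24.1 ± 4.50 FPKM in AO229 and 8.68 ± 4.20 FPKM in AO228 libraries (SD, n = 2 each). AO229 exceeded AO228 by 1.44 on the log2 scale, with an interval from 0.71 to 2.17 (limma adjusted p = 0.0700). Over the alternatives the adjusted p ranged from 0.0482 among loci of at least 5 FPKM to 0.328 without shCrebbp 4. Egr1 had the opposite sign, at 109.7 ± 4.96 FPKM in AO229 and 151 ± 25.3 FPKM in AO228 libraries (log2 difference -0.44, interval from -1.04 to 0.15, limma adjusted p = 0.449). Egr2 measured 47.5 ± 8.49 FPKM in AO229 and 49.5 ± 12.6 FPKM in AO228 libraries (log2 difference -0.05, interval from -0.59 to 0.50, limma adjusted p = 0.957). The log2 difference was 0.21 for Nab1 and 0.38 for Nab2 (limma adjusted p = 0.783 and 0.610).

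Of the 26 other immediate early genes tested, 4 were higher (Nr4a1, Nr4a2, Atf3 and Klf4) and 1 was lower (Gadd45b) in AO229 at a limma adjusted p under 0.05. Over all loci tested, 0.666% were higher and 0.613% lower by the same test. The median log2 difference of the 26 genes was 0.35, against 0.00 over all loci tested, and 8 lay below 0, as did 49.1% of all loci tested. Nr4a1, an orphan nuclear receptor gene induced by antigen receptor signals, held 587 and 448 FPKM in AO229 and 40.5 and 95.4 FPKM in AO228 libraries (log2 difference 3.02, limma adjusted p = 0.0305). Atf3, a stress-induced transcription factor gene, held 223 and 292 FPKM in AO229 and 43.2 and 53.2 FPKM in AO228 libraries. Klf4 differed by 1.73, Nr4a2 by 2.77 and Gadd45b by -1.54 on the log2 scale. Klf4 and Nr4a2 were named after values were seen. The same fit called 0 of the 26 without scramble 1, scramble 3, shCrebbp 1, shCrebbp 3 or shCrebbp 4, 1 without shCrebbp 2 and 8 without scramble 2. Egr3 had the direction of Nr4a1 and Klf4, and Egr1 and Egr2 did not. In the other lists 0 genes passed between the prefixes. Their medians lay between -0.10 for NuRD and 0.13 for ERK cascade kinases. Named by their small p, the kinase genes Rps6ka3 and Rps6ka5 differed by -0.85 and 0.80 on the log2 scale, Hdac1 by -0.74, Chd3 by 0.58, and the ternary complex factor genes Elk1 and Elk4 by -0.64 and 0.23. Among EGR targets, Socs3, a cytokine signalling inhibitor gene, differed by 1.69 (limma adjusted p = 0.0725), the growth factor gene Pdgfa, at 11.4 FPKM in shCrebbp 1, by -2.47 and the diacylglycerol kinase gene Dgka by 1.11. Pdgfa passed the filter only through AO228, at a mean of 6.88 FPKM, against 0.179 FPKM in AO229 and 0.127 FPKM in scramble libraries.

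The germinal centre B cell markers S1pr2, Mef2b, Fas and Bcl6 were lower in AO229 than in AO228 libraries without overlap, as were 25.4% of all loci tested. S1pr2, a receptor gene that keeps cells in the germinal centre, held 16.7 and 24.3 FPKM in AO229 and 96.2 and 90.6 FPKM in AO228 libraries, with 41.7 to 83.2 FPKM in scramble libraries. It passed the test between prefixes (log2 difference -2.16, limma adjusted p = 0.0359), a test that 0 loci passed with the 4 shCrebbp libraries alone. These markers were named after values were seen. The log2 difference was -1.89 for Mef2b, -1.72 for Fas and -0.80 for Bcl6, which did not pass (limma adjusted p = 0.0539, 0.0685 and 0.246). Macrophage markers without Cd68 summed to 15.4 to 26.2 FPKM in AO229 and 16.8 to 19.1 FPKM in AO228 libraries. The part of either marker group in the Egr3 difference was not tested.

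**Figure D5:**
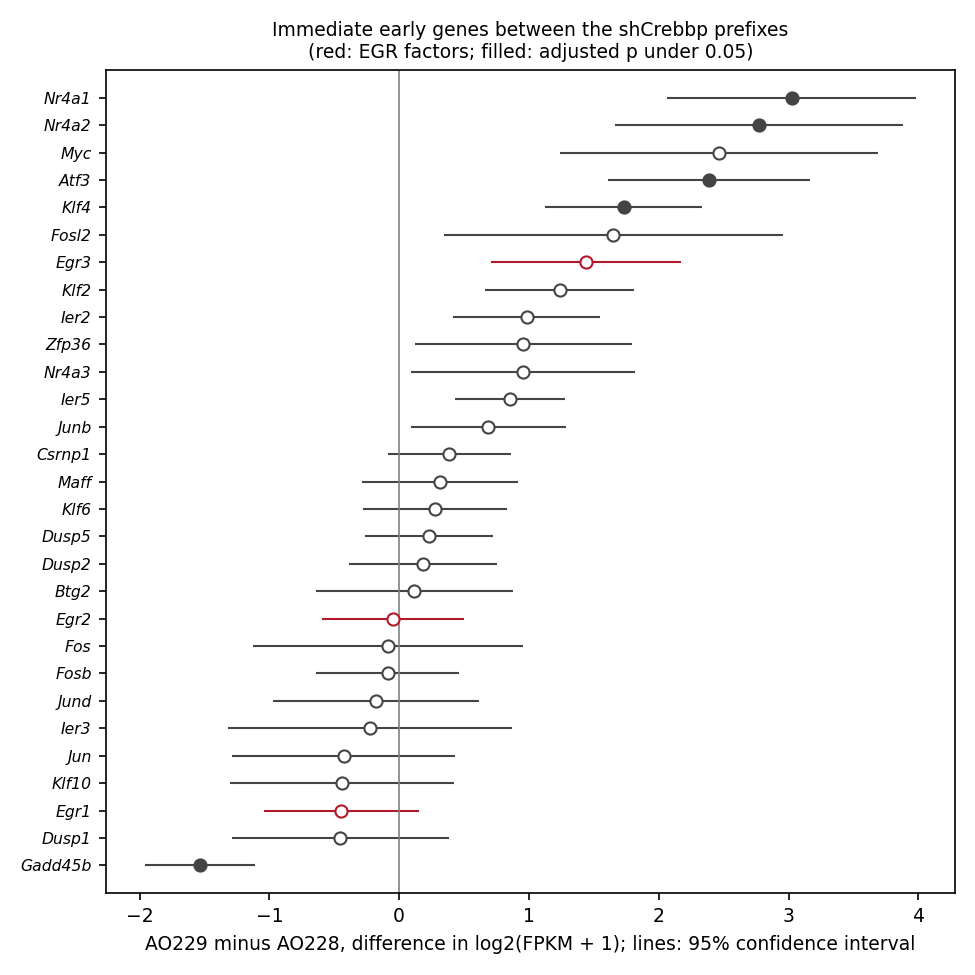
Difference between the shCrebbp prefixes, AO229 minus AO228, in log2(FPKM + 1) for the 3 EGR genes (red) and 26 other immediate early genes (grey), with 95% confidence intervals. Filled points have an adjusted p under 0.05. Egr3 lies at 1.44 among genes higher in AO229, Egr2 at -0.05 and Egr1 at -0.44.

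For each gene the 3 single-gene loci of most similar pattern were sought among 6812 loci that averaged 5 FPKM or more. The measure was the root mean square difference over the 8 libraries between log2(FPKM + 1) profiles, each centred on its own mean. It is a description without a test, and a gene found this way shares its member's differences between libraries because of the search. Nearest to Egr1 were Hsp90b1, a chaperone gene of the endoplasmic reticulum (0.16), Cited2, whose product binds CREBBP and p300 (0.18), and the potassium channel gene Kcnk5 (0.18). Nearest to Egr2 were the phospholipase gene Pnpla8 (0.18), Fam213a (0.22) and Dnajb9, a cochaperone gene of the endoplasmic reticulum (0.23). Hsp90b1 measured 109.3 FPKM in shCrebbp and 179.9 FPKM in scramble libraries on average, and Dnajb9 55.4 FPKM in shCrebbp and 92.1 FPKM in scramble libraries.

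Nearest to Egr3 were Impact, a translational regulator gene (0.16), Nr4a3, a relative of Nr4a1 (0.22), and Hnrnph2, an RNA-binding protein gene (0.25). Nr4a3 measured 7.96 and 10.3 FPKM in AO229 and 2.53 and 6.64 FPKM in AO228 libraries, against 8.53 to 13.6 FPKM in scramble libraries. Nearest to Nab1 were Coq6 (0.07), Fam104a (0.09) and Gng10 (0.09), and nearest to Nab2 were Det1 (0.12), Tbl3 (0.13) and Zdhhc17 (0.13). Between the members the difference was 0.33 for Egr1 and Egr2 and 0.43 for Nab1 and Nab2. It was 0.68 to 0.81 for every other pair.

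Of the loci beside the EGR genes, Ado lay 2196 bases after Egr2 and measured 4.59 ± 0.670 FPKM in shCrebbp and 3.95 ± 0.581 FPKM in scramble libraries (SD, n = 4 each). Etf1, the locus after Egr1 and a translation termination factor gene, had a log2 difference of -0.25, and Bin3, 7817 bases after Egr3, of -0.12. Between the prefixes Bin3 measured 16.5 and 21.8 FPKM in AO229 and 7.88 and 16.2 FPKM in AO228 libraries, a log2 difference of 0.69. Nrbf2, before Egr2, differed by 0.02 between shCrebbp and scramble libraries.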

How the data were processed

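Total RNA of 8 sorted lymphoma libraries was sequenced after removal of ribosomal RNA with a stranded kit, per the labels' protocols. The submitters' processing notes name CASAVA 1.8, TopHat2, Cufflinks and mm10, without roles. The authors deposited 1 table of FPKM per locus and library. That unit is read from value ranges and Cufflinks-style identifiers, and the scaling total is not stated. Of 13 sample columns, 5 had no match among the samples and stayed out. Values were transformed to log2(FPKM + 1), which understates changes of low genes. Loci averaging 1 FPKM or more were tested in limma 3.58.1 (R 4.3.3), two-sided, with a mean trend in the empirical Bayes prior and Benjamini-Hochberg adjustment over all loci tested. One fit compared shCrebbp with scramble, and another with a coefficient per prefix compared AO229 with AO228. The code was tested on simulated data. Replicates were numbered in the order listed.

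The members, gene lists and tests were chosen with earlier results of these data known. From each list up to 3 genes of smallest p in each comparison were named, with the members, Egr4, Wt1, Crebbp, Stat6, the 3 nearest loci by pattern and adjacent loci. Ep300 was named by the same rule. Chd4, Cblb, Dgkz, Nr4a2, Klf4 and the markers were named after values were seen. Alternatives covered the pseudocount, filter, scaling, summed loci, the prior, single prefixes and each library left out. Leaving out scramble 2 and shCrebbp 3 together was added after seeing the data. Results of some listed genes are not reported here. Precision was read from replicates, since FPKM gives no counts.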

Additional observations from a re-analysis of the deposited data

Results flagged for a closer look

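Among 124 groups of 4 libraries examined, 7 held a library far from the others by Dixon's test at the 95% level, and chance flags about 1 in 20 groups. In shCrebbp libraries, Srf was low at 9.36 FPKM in shCrebbp 1, Klf10 was high at 29.1 FPKM in shCrebbp 2 and Fam213a was low at 4.66 FPKM in shCrebbp 2. In scramble libraries, Icam1 was high at 52.1 FPKM and Pdgfa at 0.508 FPKM in scramble 2, and Nr4a3 was high at 13.6 FPKM and Hnrnph2 at 58.6 FPKM in scramble 3. Pdgfa was listed at 0 in scramble 1, 3 and 4, so any value above 0 in scramble 2 would be flagged. None of the 5 EGR and NAB genes was among the flagged genes.

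Of the 26 other immediate early genes tested, 5 differed between the shCrebbp prefixes by the limma test of that difference. Over all loci tested, 146 of 11417 (1.28%) did. The same fit called 0 of the 26 without scramble 1, scramble 3, shCrebbp 1, shCrebbp 3 or shCrebbp 4. The log2 difference, AO229 minus AO228, was 3.02 for Nr4a1, 2.77 for Nr4a2, 2.39 for Atf3, 1.73 for Klf4 and -1.54 for Gadd45b.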

How the results depend on the processing

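No paired analysis was possible because replicate numbers follow listing order and tie no shCrebbp library to a scramble library. Between shCrebbp and scramble, Egr1 and Egr2 kept a negative and Nab1 and Nab2 a positive log2 difference under all alternatives run. Leaving out each library in turn gave -0.96 to -0.67 for Egr1, -1.09 to -0.92 for Egr2, -1.01 to -0.32 for Egr3, 0.31 to 0.53 for Nab1, 0.12 to 0.43 for Nab2 and -1.35 to -1.02 for the log2 ratio of EGR to NAB. For Egr3, AO228 libraries alone gave -1.43 and AO229 libraries alone 0.0082, each against scramble. Without both scramble 2 and shCrebbp 3 the log2 differences were -0.80 for Egr1, -0.91 for Egr2, -0.92 for Egr3, 0.33 for Nab1, 0.37 for Nab2 and -1.21 for the ratio. The count of loci called was 0 to 2 with a library left out and 3 without a filter.

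Between AO229 and AO228 the count of 146 was 29 without a filter (more loci tested), 240 among loci of at least 5 FPKM, 2 with a prior without trend, 0 with the 4 shCrebbp libraries alone, 3 to 522 with a library left out and 11 without scramble 2 and shCrebbp 3. For Egr3, 1.44 passed among loci of at least 5 FPKM (limma adjusted p = 0.0482). Egr2 ranged from -0.30 to 0.21 with a library left out, at 0.21 without shCrebbp 1 and 0.13 without shCrebbp 3 or without scramble 2 and shCrebbp 3. Nab1 was -0.0165 without shCrebbp 2. Of the other immediate early genes, 5 were called, against 1 without a filter, 0 to 8 with a library left out and 0 without scramble 2 and shCrebbp 3. The cause of these changes was not tested.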
